A study of Mus musculus with 23 samples.

Results

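Macrophage activation in mouse tumors is read from a small set of genes, and 10 of them are described here by symbol: Arg1, Nos2, Mrc1, Chil3, Chil4, Retnla, Cd163, Trem2, Spp1 and Csf1r. For each symbol the transcript with the largest mean was kept, which gave 10 genes among 24940 symbols in the table of whole tumors and 10 among 24940 in the table of sorted fibroblasts. All 10 passed the filter on low counts in tumors and were tested, and 9 passed the filter in the fibroblasts, where Cd163 was too low.

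RNA was sequenced from subcutaneous flank tumors of adult female C57BL/6 (C57BL/6JBomTac) mice, with 3 tumors for each of 5 cultured lines: B16 (B16-F10, melanoma), EO771 (EO771.LMB, breast carcinoma), LL2 (lung carcinoma), MC38 (colon carcinoma) and Pan02 (pancreatic ductal carcinoma). Cancer-associated fibroblasts (CAFs) were sorted as FAP+ cells from the CD45- fraction of EO771, LL2, MC38 and Pan02 tumors, with 2 libraries for each model, and B16 CAFs were not analysed here. All groups share the host strain, and no label names a transgene, a treatment or a time point. Each model is 1 cultured line, mice with ulcerated tumors had been left out of the study, and nothing in the labels ties a CAF library to a tumor or to a round of sorting.

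Macrophages change their programs with the signals around them. Interferon-gamma and microbial products induce Nos2, whereas IL-4 and IL-13, acting through STAT6, induce Arg1, Mrc1, Retnla and the chitinase-like genes Chil3 and Chil4 in mice. Tumor macrophages rarely follow either pattern alone, and Trem2 and Spp1 mark further states that are common in tumors, while Csf1r is the receptor that keeps the lineage alive. The expression of at least 6 of these genes is not limited to macrophages. Arg1 and Nos2 are also made by neutrophils and other myeloid cells, Retnla by eosinophils and adipose tissue, Chil3 by neutrophils, Chil4 by epithelia, and Spp1 by tumor cells and fibroblasts.

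Tumor libraries held 10035173 to 21946486 counts, with a median of 16541399. No pair of tumors within a group agreed within sampling noise, so each was kept as a replicate, and the p-values measure the spread between these tumors. By the study's methods mice were injected in the right flank or both flanks, and no label names the mouse. Tumors of a group may thus share an animal. The tumor values below are counts scaled to library size (CPM), and a level compared between genes is given per length as RPKM. In the tumors, melanocyte markers summed to 21459 to 26852 CPM in B16, and epithelial markers summed to 2304 to 3449 CPM in Pan02 against 8.05 to 1269 CPM in the tumors of the other models. The 4 macrophage lineage genes (Adgre1, Cd68, Fcgr1 and Mertk) were detected in every tumor and summed to 137 to 187 CPM in B16 and to 181 to 565 CPM in the other models.

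Each member differed among the 5 models in the tumors (edgeR quasi-likelihood F test, Benjamini-Hochberg adjusted p between 4.2e-08 for Chil4 and 0.0010 for Mrc1 and Trem2). That is 10 of 10 members, beside 91.1% of all 15722 genes tested. Set against the mean of the other 4 models, Pan02 tumors had 9 members higher and 0 lower, where 32.5% of all genes were higher and 28.1% lower. B16 tumors had 0 higher and 7 lower, where 31.9% of all genes were higher and 31.6% lower. The 3 remaining models had members in both directions. EO771 had 2 higher and 3 lower (27.2% and 27.0% of all genes), LL2 had 2 higher and 1 lower (23.3% and 18.9%), and MC38 had 2 higher and 2 lower (27.0% and 24.4%). The median log2 difference over the 10 members was 2.75 in Pan02 and -2.20 in B16, and the medians over all genes were 0.05 and -0.03. Bulk RNA cannot tell fewer macrophages from less RNA per macrophage, and this holds for each difference below. When any 1 tumor was left out, 8 to 9 members were called in Pan02 and 5 to 9 in B16. In EO771 3 members were called without any 1 of its tumors and 8 without Pan02 tumor 1, in LL2 5 without Pan02 tumor 3, and in MC38 2 without MC38 tumor 2.

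**Figure D1:**
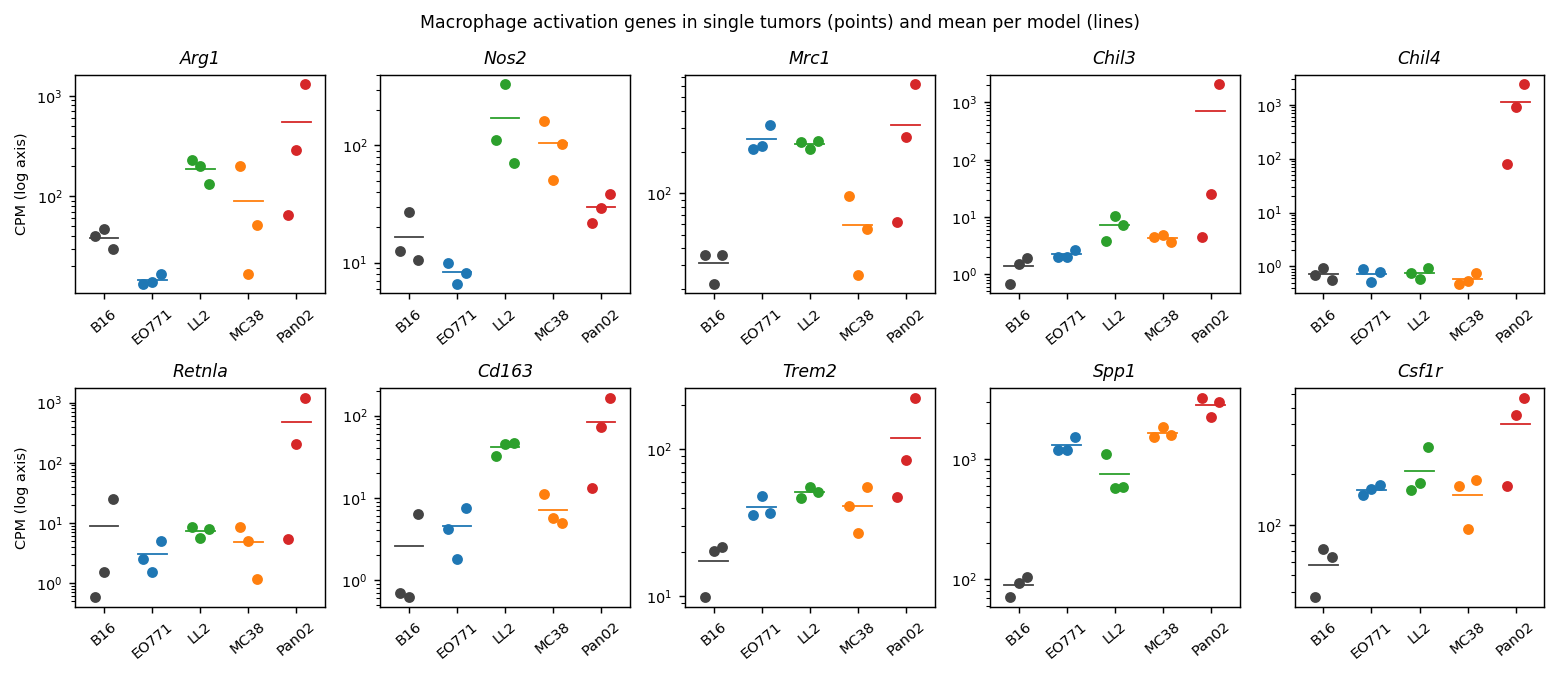
Level of each member in single tumors (points, CPM on a log axis) with the mean CPM per model (lines). Chil4 stands apart in all 3 Pan02 tumors, whereas Chil3, Retnla and Arg1 range over several log2 units within Pan02.

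Arg1 (NM_007482, chr10:24915207-24927470 on the minus strand of mm10) encodes arginase 1, which turns arginine into ornithine and urea. In Pan02 it was counted at 65.5, 287 and 1294 CPM in tumors 1, 2 and 3. LL2 tumors had 229, 201 and 131 CPM, and MC38 tumors had 199.7, 16.9 and 51.2 CPM. B16 tumors had 39.8, 47.0 and 29.6 CPM, and EO771 tumors had 13.5, 14.1 and 16.6 CPM. All 3 EO771 tumors lay below each other tumor of the series, while Pan02 tumor 1 lay below all LL2 tumors and Pan02 tumor 3 above everything else. Arg1 was lower in EO771 (log2 difference from the mean of the other models -3.22, SE 0.87, edgeR adjusted p = 0.0067, n = 3) and higher in Pan02, where leaving out tumor 3 brought the difference to 1.66 (adjusted p = 0.023). In the order Pan02, LL2, MC38, B16 and EO771, no neighbouring pair of models passed the test, whose spread is shared over the models. The difference between Pan02 and LL2 was 1.55 (SE 0.87, edgeR adjusted p = 0.16). B16 and EO771, whose tumors did not overlap, were 1.40 apart (SE 0.90, adjusted p = 0.20). Of the 10 pairs of models, 6 differed, beside 54.6% of all pairs over all genes.

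Nos2 (NM_010927, chr11:78920787-78960226, plus strand) encodes the inducible nitric oxide synthase, which uses the same arginine. It was counted at 112, 332 and 70.7 CPM in LL2 and at 160.3, 50.3 and 102 CPM in MC38. Pan02 tumors had 21.9, 29.2 and 38.3 CPM, B16 tumors had 12.7, 26.8 and 10.6 CPM, and EO771 tumors had 10.0, 6.62 and 8.19 CPM. The LL2 and MC38 tumors overlapped and lay above all tumors of the other 3 models, and the EO771 tumors lay below every other tumor. Nos2 was higher in MC38 (1.84, SE 0.38, edgeR adjusted p = 0.0012) and lower in EO771 (-2.71, SE 0.53, adjusted p = 0.00073). It was also higher in LL2, by 1.83 (adjusted p = 0.0013) when tumor 2 was left out. The lower level in B16 (-1.46, SE 0.48, adjusted p = 0.016) passed the test with all tumors and missed it without B16 tumor 1 (adjusted p = 0.073) or tumor 3 (adjusted p = 0.085). Pan02 did not pass the test (-0.42, SE 0.44, adjusted p = 0.43), which made Nos2 the 1 member not called there. MC38 and the next model in order, Pan02, differed by 1.81 (adjusted p = 0.012), whereas LL2 and MC38 did not pass (0.72, SE 0.53, adjusted p = 0.29).

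Neutrophils carry both of these genes too, and the sums of their markers were highest in LL2. The 9 neutrophil markers summed to 62.1, 139 and 67.1 CPM in LL2 tumors 1, 2 and 3 and to 60.8, 52.6 and 28.7 CPM in Pan02, against 3.83 to 27.8 CPM in the other models. LL2 tumor 2 was the highest tumor of the series for Nos2 and also had the highest of these sums. The part of neutrophils in the Nos2 and Arg1 levels was not tested.

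The ratio of Arg1 to Nos2 CPM in single tumors, not scaled to transcript length, set the models apart in another way. It was 2.99, 9.84 and 33.8 in Pan02, 2.04, 0.607 and 1.85 in LL2, and 1.25, 0.337 and 0.502 in MC38. In B16 it was 3.14, 1.75 and 2.80, and in EO771 it was 1.35, 2.13 and 2.03. Pan02 tumors 2 and 3 had the highest ratios of the 15 tumors, while Pan02 tumor 1 lay within the B16 range. By CPM, Nos2 exceeded Arg1 in 2 MC38 tumors and 1 LL2 tumor. The Nos2 transcript is longer (4135 bases against 1467). Per length, Nos2 exceeded Arg1 in MC38 tumor 2 alone, at 12.2 against 11.5 RPKM.

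Mrc1 (NM_008625, chr2:14229414-14332023, plus strand) encodes the mannose receptor CD206. It was counted at 61.7, 257 and 620.0 CPM in Pan02, at 209, 222 and 314 CPM in EO771 and at 236, 211 and 239 CPM in LL2. MC38 tumors had 95.2, 25.2 and 55.1 CPM, and B16 tumors had 35.4, 22.0 and 35.8 CPM. EO771 and LL2 tumors lay in a narrow band above every MC38 and B16 tumor, and the Pan02 tumors reached from the MC38 range to the highest level of the series. Mrc1 was lower in B16 (-2.53, SE 0.57, edgeR adjusted p = 0.0016). The higher level in Pan02 (1.63, SE 0.43, adjusted p = 0.0046) rested on tumor 3, without which it was 0.66 (adjusted p = 0.20), and it also missed the threshold when each model had its own spread (limma voom, 1.15, adjusted p = 0.10). EO771 was called higher (1.22, SE 0.44, adjusted p = 0.030), but not without any 1 of its tumors (adjusted p between 0.056 and 0.135). MC38 was called lower (-1.39, SE 0.52, adjusted p = 0.039), but not without MC38 tumor 2 (-1.03, adjusted p = 0.16), MC38 tumor 3 (adjusted p = 0.10), B16 tumor 1 or 3, or EO771 tumor 3 (adjusted p between 0.054 and 0.056), nor with total-count scaling (-1.24, adjusted p = 0.059). Among neighbours in the order, LL2 and MC38 differed (1.96, adjusted p = 0.019), and Pan02, EO771 and LL2 did not pass.

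Cd163 (NM_001170395, chr6:124304651-124330527, plus strand), the scavenger receptor for haemoglobin bound to haptoglobin, was the lowest member per length, with a mean of 6.22 RPKM over the 15 tumors. It was counted at 13.2, 73.2 and 165 CPM in Pan02 and at 32.0, 45.0 and 46.1 CPM in LL2. MC38 tumors had 11.0, 5.66 and 4.86 CPM, EO771 tumors had 4.13, 1.78 and 7.49 CPM, and B16 tumors had 0.687, 0.621 and 6.38 CPM. The 3 LL2 tumors were alike and lay above all MC38, EO771 and B16 tumors, and the Pan02 tumors lay on both sides of them. Cd163 was higher in Pan02 (3.43, SE 0.55, edgeR adjusted p = 0.00012) and, without Pan02 tumor 3, by 2.47 (adjusted p = 0.0034). It was higher in LL2 (2.15, SE 0.57, adjusted p = 0.0083) and lower in B16 (-2.72, SE 0.81, adjusted p = 0.0094), where leaving out tumor 3 gave -4.79 (adjusted p = 0.0018). LL2 differed from MC38 (2.51, adjusted p = 0.027), and Pan02 did not pass against LL2 (1.03, SE 0.79, adjusted p = 0.30).

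Chil3 (NM_009892, chr3:106147554-106167564) and Chil4 (NM_145126, chr3:106201491-106219479) encode the secreted chitinase-like proteins Ym1 and Ym2 and lie 33926 bases apart on the minus strand of the same chromosome. Their longest coding transcripts are identical at 1454 of 1535 aligned bases (94.7%), with a longest shared run of 136 bases. Of the 50-base windows of Chil3, 26.9% are found in another gene (Chil4 and Gm6522), and of those of Chil4 11.0%, so counts in such windows can be split between these genes or dropped. The bases before their starts are also alike, with 202 of 221 aligned bases identical (91.4%) and a longest shared run of 44 bases, and are shown because these neighbours were both highest in Pan02. Both windows, from RefSeq on GRCm38.p6, are chr3:106167565-106167814 for Chil3 and chr3:106219480-106219729 for Chil4, read on the minus strand from 5′ to 3′ up to the base before the transcript start. Capitals mark the match to TTCNNNGAA, a palindrome that STAT proteins can bind, 172 bases before the start of Chil3 and 200 before that of Chil4.
Chil3: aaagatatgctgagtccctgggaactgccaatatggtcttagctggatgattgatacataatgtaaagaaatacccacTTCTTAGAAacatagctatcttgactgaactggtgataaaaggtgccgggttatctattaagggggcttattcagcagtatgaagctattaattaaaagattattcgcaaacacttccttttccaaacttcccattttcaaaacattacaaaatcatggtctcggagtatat
Chil4: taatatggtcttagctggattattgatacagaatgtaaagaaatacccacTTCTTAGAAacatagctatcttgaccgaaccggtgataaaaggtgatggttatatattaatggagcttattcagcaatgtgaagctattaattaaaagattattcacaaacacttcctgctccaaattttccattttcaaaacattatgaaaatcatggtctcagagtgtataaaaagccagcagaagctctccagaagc
The motif TTCNNNGAA is found in 7.02% of 32851 promoter windows of 250 bases, so a match describes the letters and no binding was measured. Promoters of Mrc1, Spp1, Cd163 and Trem2 held no match to it or to TTCNNNNGAA, the spacing that STAT6 prefers, within the window searched. Arg1, Nos2 and Csf1r had no entry and were not searched.

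Chil3 was counted at 4.49, 25.4 and 2064 CPM in Pan02 tumors 1, 2 and 3. LL2 tumors had 3.87, 10.4 and 7.13 CPM and MC38 tumors had 4.43, 4.81 and 3.70 CPM. EO771 tumors had 1.96, 2.04 and 2.70 CPM, and B16 tumors had 0.687, 1.49 and 1.94 CPM. Pan02 tumor 3 stood far above the other 14 tumors, tumor 2 was the next highest, and tumor 1 lay within the range of LL2 and MC38. Chil3 was higher in Pan02 (7.78, SE 0.95, edgeR adjusted p = 1.1e-05), and the size of this difference depended on single tumors, being 2.23 without tumor 3 (adjusted p = 0.00069) and 8.39 without tumor 1. Every B16 tumor lay below every tumor of the other models, but B16 against their mean did not pass the test (-3.34, SE 1.49, adjusted p = 0.065).

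Chil4 was counted at 79.2, 915 and 2386 CPM in Pan02, which is 1623, 13572 and 39764 counts. In the other 12 tumors it ranged from 0.481 to 0.939 CPM, or from 5.5 to 16.5 counts. The Pan02 tumors did not overlap with any other, although they differed 30.1-fold between tumor 3 and tumor 1. Leaving out tumor 3 brought the difference of Pan02 from the mean of the other models to 9.46 (edgeR adjusted p = 1.2e-08), and Pan02 differed from LL2, the next model, by 10.55 (adjusted p = 5.5e-06). The other 4 models were each called lower than a mean that holds Pan02. In EO771 this call was lost without any 1 tumor of B16, EO771, LL2 or MC38 or without Pan02 tumor 2 (adjusted p between 0.051 and 0.111), and in LL2 without any of the same tumors (adjusted p between 0.052 and 0.142). In B16 it was lost without any 1 B16 tumor (adjusted p between 0.066 and 0.102), and in MC38 without MC38 tumor 1 (adjusted p = 0.069) or 2 (adjusted p = 0.067). None of the 6 pairs among them differed. Chil4 exceeded Chil3 in every Pan02 tumor, by 17.6, 36.1 and 1.16 times, and in no other tumor, where the ratio ran from 0.0553 to 1.00.

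Epithelial cells can make Chil4, and epithelial markers were higher in Pan02 for 7 of 7 tested of the 8 in the list. Ehf, 1 of the 7, was at most 0.491 CPM elsewhere, so it passed the filter through Pan02 and had to differ. The markers summed to 2304, 3449 and 2514 CPM in Pan02 tumors 1, 2 and 3. The order of these sums was not that of Chil4. The part of epithelial cells in the Chil4 level was not tested.

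Retnla (NM_020509, chr16:48842552-48844461, plus strand) encodes the secreted protein RELM-alpha. The 193 bases before its start (RefSeq, GRCm38.p6, chr16:48842359-48842551, plus strand) hold the wider spacing TTCNNNNGAA, shown in capitals 88 bases before the start.
Retnla: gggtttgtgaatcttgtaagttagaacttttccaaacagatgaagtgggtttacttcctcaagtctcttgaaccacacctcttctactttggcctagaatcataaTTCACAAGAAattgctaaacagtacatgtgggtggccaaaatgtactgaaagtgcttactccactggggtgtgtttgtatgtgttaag
Of all promoter windows of 250 bases 5.85% hold this spacing and 12.4% hold either motif, both of which read the same on each strand. Retnla was counted at 5.37, 206 and 1203 CPM in Pan02 and at 8.42, 5.63 and 8.01 CPM in LL2. MC38 tumors had 8.42, 4.96 and 1.16 CPM, EO771 tumors had 2.54, 1.53 and 4.96 CPM, and B16 tumors had 0.589, 1.55 and 25.0 CPM. Pan02 tumors 2 and 3 were the highest of all, tumor 1 lay within the LL2 and MC38 range, and B16 tumor 3 stood above the other B16 tumors. Retnla was higher in Pan02 (6.38, SE 0.89, edgeR adjusted p = 3.6e-05), by 4.21 without Pan02 tumor 3 (adjusted p = 0.0012), 6.98 without Pan02 tumor 1 and 7.13 without B16 tumor 3. None of the other 4 models passed against the mean of the rest.

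Eosinophils carry Retnla in some tissues, and within Pan02 their markers followed the order of Retnla. The 6 markers summed to 4.88, 41.5 and 94.8 CPM in Pan02 tumors 1, 2 and 3 and to 0.746 to 14.0 CPM in the other tumors. Outside Pan02 the sum was highest in EO771 tumor 2 (14.0 CPM), where Retnla was at 1.53 CPM, and B16 tumor 3, with Retnla at 25.0 CPM, had a sum of 1.84 CPM. All 3 of the markers that could be tested were higher in Pan02, with and without tumor 3. Siglecf, 1 of the 3, was at 2.10, 6.34 and 10.1 CPM in Pan02 and at most 0.594 CPM elsewhere. It passed the filter through Pan02 alone and had to differ. Ear2, an eosinophil ribonuclease also made by some macrophages, rose by 4.18 (SE 0.53, edgeR adjusted p = 1.7e-05). Epx, which defines the lineage, was at or below 0.0674 CPM in every tumor. The part of eosinophils in the Retnla level was not tested.

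Trem2 (NM_001272078, chr17:48346401-48352276, plus strand) encodes a lipid-sensing receptor of macrophages. It was counted at 47.4, 84.6 and 224 CPM in Pan02, at 46.3, 55.2 and 50.9 CPM in LL2, at 40.8, 26.9 and 54.9 CPM in MC38 and at 35.8, 48.2 and 36.6 CPM in EO771. B16 tumors had 9.92, 20.3 and 21.7 CPM. All B16 tumors lay below all others, LL2, MC38 and EO771 overlapped, and Pan02 tumors 2 and 3 lay above them. Trem2 was lower in B16 (-1.68, SE 0.40, edgeR adjusted p = 0.0025) and higher in Pan02 (1.77, SE 0.32, adjusted p = 0.00031), by 0.93 without Pan02 tumor 3 (adjusted p = 0.0095). The differences of the other 3 models from the mean of the rest lay between -0.18 and 0.24 and did not pass.

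Csf1r (NM_001037859) encodes the receptor for CSF1 and IL-34, on which macrophage survival depends. It was counted at 171, 450.3 and 571 CPM in Pan02, at 161, 178 and 291 CPM in LL2, at 150.1, 164 and 172 CPM in EO771 and at 172, 94.1 and 184 CPM in MC38. B16 tumors had 37.3, 71.8 and 64.3 CPM. Here too all B16 tumors lay below all others, and Pan02 tumor 1 was at the level of LL2, EO771 and MC38 tumors. Csf1r was lower in B16 (-1.87, SE 0.35, edgeR adjusted p = 0.00041), and MC38, the next model up, differed from B16 by 1.37 (adjusted p = 0.0091). Pan02 against LL2 did not pass (0.92, SE 0.39, adjusted p = 0.067). Of its 5774 exonic bases, 873 overlap Hmgxb3 on the opposite strand, and the libraries did not mark strand.

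Spp1 (NM_001204202, chr5:104435111-104441053, plus strand) encodes osteopontin, a secreted glycoprotein, and was the highest member per length, with a mean of 911 RPKM over the 15 tumors. It was counted at 3265, 2251 and 3031 CPM in Pan02, at 1526, 1859.6 and 1587 CPM in MC38 and at 1188, 1206 and 1536 CPM in EO771. LL2 tumors had 1103, 578 and 589 CPM, and B16 tumors had 71.2, 93.3 and 104 CPM. All Pan02 tumors lay above and all B16 tumors below every other tumor, and MC38 overlapped with EO771 in a single tumor. Spp1 was higher in Pan02 (2.20, SE 0.17, edgeR adjusted p = 1.7e-07), MC38 (1.22, SE 0.18, adjusted p = 7.1e-05) and EO771 (0.80, SE 0.18, adjusted p = 0.0021) and lower in B16 (-4.04, SE 0.25, adjusted p = 1.3e-08). It was the best separated member, with 9 of 10 pairs of models differing. Markers of fibroblasts, which can make Spp1, were higher in Pan02 for 8 of 8, with sums of 42961 to 48828 CPM. They were lower in B16 for 8 of 8, with sums of 378 to 1619 CPM, against 2799 to 13245 CPM in the other models. In LL2, where Spp1 did not pass (-0.19, SE 0.19), 4 of these markers were higher and 1 lower. MC38 had 0 higher and 0 lower and EO771 2 and 2, while Spp1 was higher in both. The part of fibroblasts in the Spp1 level was not tested. Of its exonic bases, 309 of 1648 overlap Gm42793 on the same strand, which may take some of the counts.

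Across the 10 members and their orders of mean level, 12 of 40 neighbouring pairs of tumor models differed, beside 27.1% of such pairs over all genes. For Chil3, Chil4 and Retnla the 4 pairs that passed, of 10, each included Pan02. Groups without any overlap were few. B16 lay below all others for 4 members (Chil3, Trem2, Spp1 and Csf1r), where 12.2% of all genes did so, EO771 lay below for 2 (Arg1 and Nos2, 7.02% of all genes), and Pan02 lay above for 2 (Chil4 and Spp1, 8.92% of all genes).

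**Figure D2:**
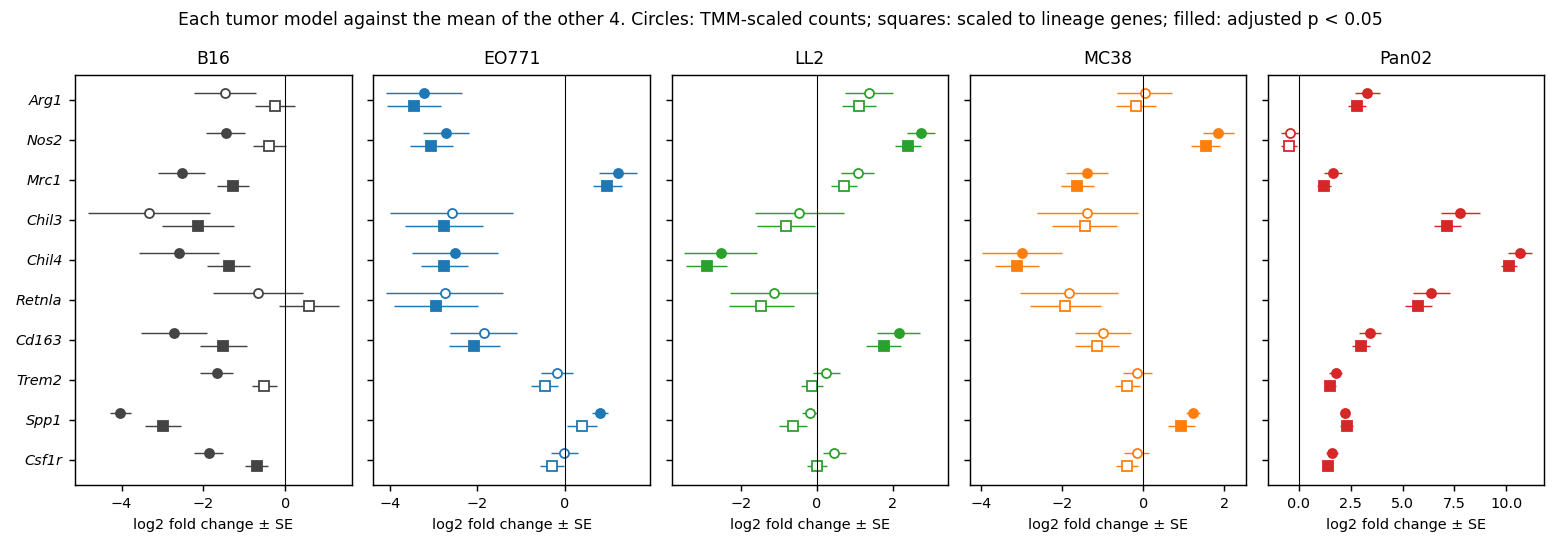
Log2 difference of each model from the mean of the other 4 models for the 10 members, with the standard error of the edgeR fit. Pan02 is above 0 for 9 members that pass the test and B16 below 0 for 7.

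Pan02 tumors spread more than those of any other model. The SD of log2(CPM + 1) over the 3 tumors had a median of 1.74 over the members in Pan02, against 0.22 to 0.54 in the other models. Over all genes tested the same medians were 0.25 in Pan02 and 0.11 to 0.18 in the others. In Pan02, 8 of 10 members were over 2-fold apart between the lowest and the highest tumor, as were 28.0% of all genes. The members did not spread alike, since the SD was 4.43 for Chil3, 3.85 for Retnla, 2.52 for Chil4 and 2.14 for Arg1 but 0.39 for Nos2 and 0.28 for Spp1.

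Ordered by the ratio of tumor 3 to tumor 1 in Pan02, Chil3 (459) and Retnla (224) came first. Chil4 (30.1), Arg1 (19.8), Cd163 (12.5) and Mrc1 (10.1) followed, and Trem2 (4.72), Csf1r (3.34) and Nos2 (1.75) were lower. Spp1 was at 0.928, close to the median gene (0.968). The lineage genes differed less than these first 6 members, at 3.36 for Adgre1, 3.28 for Cd68, 2.45 for Mertk and 2.24 for Fcgr1. Tumor 1 was the lowest of the 3 Pan02 tumors for each member but Spp1, and tumor 3 the highest, again but for Spp1. The sums of the 4 lineage genes were 181, 426 and 565 CPM and those of 6 leukocyte markers 529, 1173 and 1372 CPM in tumors 1, 2 and 3, so these markers moved with the members, and their part in the spread was not tested.

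**Figure D3:**
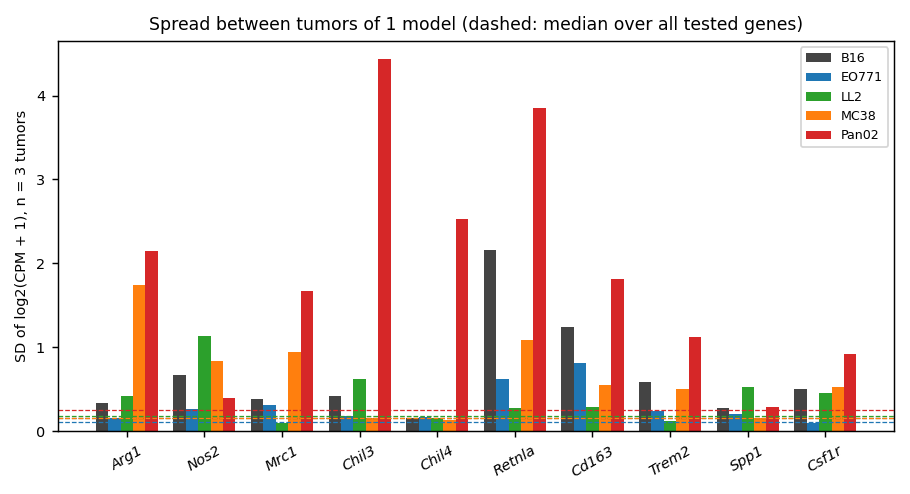
Spread of each member within a model, as the SD of log2(CPM + 1) over 3 tumors, beside the median over all genes tested. Pan02 has the widest spread for most members, with Spp1 and Nos2 near the other models.

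To set the members against genes of the macrophage lineage, each tumor was scaled by the mean log2(CPM + 1) of the 4 lineage genes. A difference then is one in the ratio to Adgre1, Cd68, Fcgr1 and Mertk. In the sorted CAFs, Cd68 was at 4.12 to 17.4 RPKM, and Mertk was highest in LL2, at 6.11 and 7.74 RPKM. Adgre1 and Fcgr1 were at most 2.75 and 1.21 RPKM there. How much of the mean in tumors came from other cells was not tested. The mean of the 4 genes was 4.93, 5.28 and 5.02 in B16, 6.27, 6.33 and 6.17 in EO771 and 6.06, 6.26 and 6.76 in LL2. It was 6.22, 5.88 and 6.46 in MC38 and 5.16, 6.35 and 6.61 in Pan02, so that Pan02 tumor 1 sat with the B16 tumors and the other Pan02 tumors with the remaining models. The scaling moved the median difference of all genes to 1.06 for B16, -0.43 for EO771, -0.48 for LL2, -0.27 for MC38 and 0.11 for Pan02, and the scaled values are to be read against these medians.

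Pan02 again had 9 members higher and 0 lower after scaling, where 21.9% of all genes were higher and 7.65% lower. Arg1 (2.80, edgeR adjusted p = 6.0e-06), Csf1r (1.39, adjusted p = 5.0e-05) and Trem2 were among them, as were Chil3 (7.16), Chil4 (10.15), Retnla (5.76) and Cd163 (2.99). Without Pan02 tumor 3 the scaled differences were 1.58 for Arg1, 2.12 for Chil3, 3.86 for Retnla and 2.34 for Cd163, and Mrc1 no longer passed (0.59, adjusted p = 0.20). For Mrc1, the scaled difference in Pan02 (1.21, adjusted p = 0.0058) turned to -0.23 against Csf1r alone (adjusted p = 0.63) and to -0.11 against the C1q genes (adjusted p = 0.85). Trem2 also depended on the reference, with 0.10 against Csf1r alone (adjusted p = 0.83) and 0.28 against the C1q genes (adjusted p = 0.58), and Csf1r against the C1q genes gave 0.25 (adjusted p = 0.62). Spp1 was higher by 2.30, or by 1.53 without Pan02 tumor 1.

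B16 after scaling had 0 members higher and 6 lower, where 63.9% of all genes were higher and 9.91% lower. Spp1 (-2.99, edgeR adjusted p = 1.8e-06), Mrc1 (-1.27, adjusted p = 0.0056) and Csf1r (-0.70, adjusted p = 0.027) were lower, whereas Arg1 (-0.26, adjusted p = 0.65), Nos2 (-0.39, adjusted p = 0.38) and Trem2 (-0.52, adjusted p = 0.13) did not pass. The count fell to 2 with Csf1r alone as the reference, to 3 with the C1q genes, to 3 without B16 tumor 1 and to 2 without B16 tumor 2. Mrc1 did not pass against Csf1r alone (-0.46, adjusted p = 0.32), against the C1q genes (-0.62, adjusted p = 0.22) or without B16 tumor 2 (adjusted p = 0.055). Csf1r did not pass against Adgre1 alone (-0.61, adjusted p = 0.13), against the C1q genes (-0.18, adjusted p = 0.72), with no filter on low counts (adjusted p = 0.069) or without B16 tumor 1 (adjusted p = 0.19) or tumor 2 (adjusted p = 0.059). In EO771 1 member was higher and 6 were lower (7.4% and 24.3% of all genes), with Arg1 at -3.46 (adjusted p = 0.00011) and Nos2 at -3.06 (adjusted p = 2.1e-05), and 4 were called without EO771 tumor 1 and 3 without tumor 2. LL2 had 2 higher and 1 lower (5.26% and 18.4% of all genes) and MC38 2 and 2 (9.25% and 14.6%), with 5 called in LL2 without Pan02 tumor 3 and 7 in MC38 without Pan02 tumor 1. Nos2 was higher in LL2 (2.38, adjusted p = 8.9e-06), by 1.45 without LL2 tumor 2, and in MC38 (1.54, adjusted p = 0.0019), where leaving out MC38 tumor 1 gave 1.07 (adjusted p = 0.080).

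**Figure D4:**
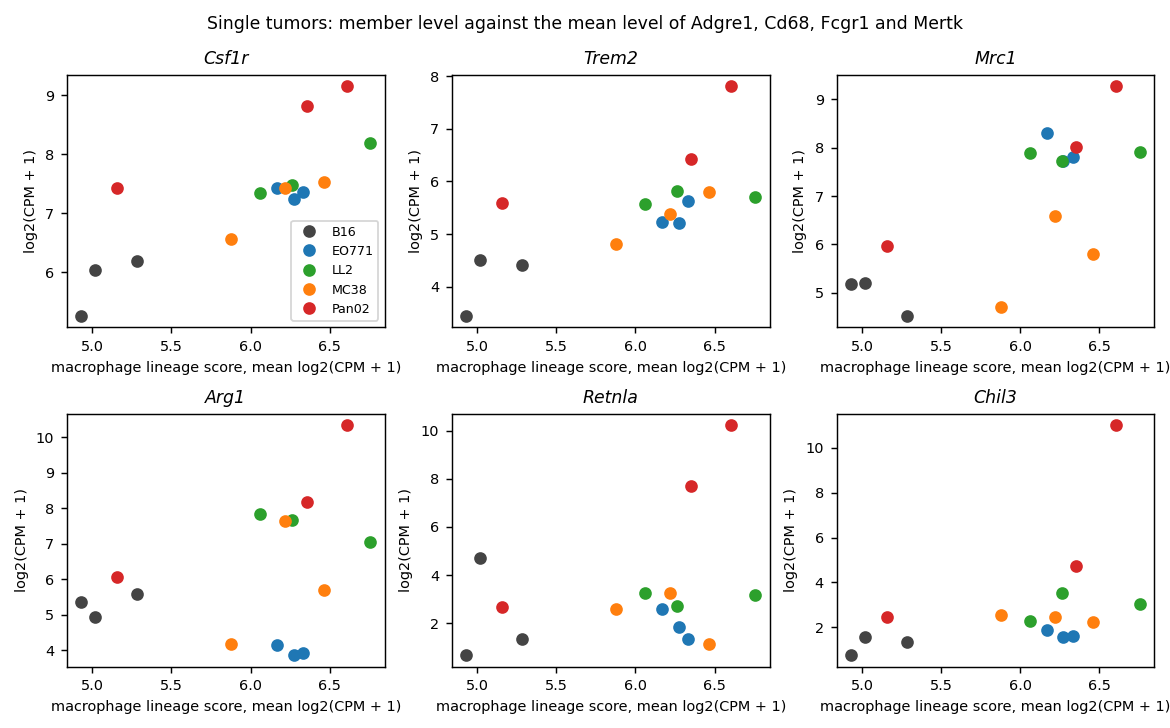
Level of 6 members (log2(CPM + 1)) against the macrophage lineage score, the mean log2(CPM + 1) of 4 lineage genes, with a point for each of 15 tumors. The points of Pan02 tumors 2 and 3 lie above tumors of other models with a like score for Csf1r, Trem2, Retnla and Chil3.

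Genes that are commonly read beside these members moved in part with them. Of 15 further alternative activation genes, 13 were higher and 0 lower in Pan02 (32.5% and 28.1% of all genes), with a median difference of 2.05 against 0.05 over all genes. The chemokines Ccl17 (5.15, SE 0.64, edgeR adjusted p = 1.2e-05, 1.66 to 33.2 CPM over the 3 tumors) and Ccl24 (4.92, SE 0.83, adjusted p = 0.00018, 0.293 to 113 CPM) changed most. Without Pan02 tumor 3, 11 were higher and 1 was lower. In B16, 1 was higher and 8 were lower, with the transcription factor Klf4 at -3.42 and the IL-4 receptor chain Il4ra at -2.89. EO771 had 3 higher and 2 lower, LL2 had 4 and 0, among them the folate receptor Folr2 at 1.59, and MC38 had 2 and 3, with the lectin Mgl2 at -2.54 and the chemokine Ccl22 at -1.86.

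The counts of this list and of the lists that follow are read against the shares of all genes given above for each model. Among 13 classical activation genes, MC38 had 6 higher and 1 lower, and the interferon-induced chemokine Cxcl10 rose most there (3.82, SE 0.41, edgeR adjusted p = 6.1e-06, 502 to 672 CPM), followed by Acod1, which makes itaconate (2.32, SE 0.39, adjusted p = 0.00023). LL2 had 5 higher and 2 lower, with the cytokine Il1b at 1.73 and the signalling inhibitor Socs3 at 1.24. Pan02 had 6 higher and 1 lower, with Il1b at 1.37 and Cxcl10 at -1.52 (SE 0.54, adjusted p = 0.026), but 2 higher and 2 lower without Pan02 tumor 2. EO771 had 0 higher and 4 lower, with Acod1 at -3.15 and the transcription factor Irf1 at -2.09, and B16 had 1 higher and 6 lower, with Il1b at -3.89.

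Arginine metabolism was read from 7 further genes. The arginine transporter Slc7a2 was higher in Pan02 (4.49, SE 0.61, edgeR adjusted p = 3.1e-05) at 13.3 to 483 CPM, and Odc1, which makes putrescine from ornithine, was lower there (-1.57, SE 0.15, adjusted p = 1.4e-06). In EO771, where Arg1 and Nos2 were lowest, the arginine-making enzyme Ass1 (2.86, SE 0.13, adjusted p = 2.7e-09, 108 to 121 CPM) and Odc1 (1.75, SE 0.12) were higher. Over the list, Pan02 had 2 higher and 3 lower, EO771 3 and 1, LL2 2 and 4, MC38 1 and 3, and B16 3 and 2, which lie within 2 genes of the shares of all genes but for the 4 lower in LL2.

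Of the 12 genes of the lipid-associated program, which accompanies Trem2, Pan02 had 5 higher and 2 lower, with the lipid carrier Apoe at 2.07 and the lysosomal glycoprotein Gpnmb at -1.60, and 2 higher and 3 lower without tumor 3. B16 had 4 higher and 4 lower, and its highest, Gpnmb (6.55, SE 0.20, edgeR adjusted p = 1.1e-11), is also a melanocyte gene. EO771 had 3 and 3, LL2 0 and 3, and MC38 1 and 3. The CSF1 receptor axis, of which 4 of 5 genes were tested, had 0 higher and 3 lower in B16, where the ligands Il34 (-4.96) and Csf1 (-1.99) were both lower. Il34 was higher in EO771 (2.98, SE 0.18, adjusted p = 2.4e-08) and Csf1 in LL2 (1.21, SE 0.12, adjusted p = 4.1e-06), and in Pan02 3 were higher, with the receptor chains Csf2rb at 1.53 and Csf2ra at 1.07. Without Pan02 tumor 3 that count was 1.

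General macrophage genes moved with the members. Of 12 of them, 10 were higher and 0 lower in Pan02, with the co-receptor Cd14 at 2.36, and 6 were higher without Pan02 tumor 3. In B16 11 of the 12 and all 4 lineage genes were lower. The 4 lineage genes had 1 higher in Pan02 (Cd68, 0.62, SE 0.25, edgeR adjusted p = 0.046), with 2 higher without Pan02 tumor 1 and 0 without Pan02 tumor 2 or 3.

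The genes whose pattern over the 15 tumors was most like each member were found by the root mean square difference of centred log2(CPM + 1), given here as a description. The closest were to Csf1r, namely Csf2rb (0.178) and Nfam1 (0.247), and to Trem2, namely Cd53 (0.282) and Csf1r (0.299). Mrc1 was closest to Npl (0.460) and Nxpe5 (0.482), and Cd163 to Alox5 (0.548) and F13a1 (0.579). For Spp1 they were Col6a1 (0.398) and P3h4 (0.438), and for Nos2 Nrn1 (0.669) and Clec4d (0.714). Arg1 had Ltc4s (0.821) and Retnlg (0.835), Chil3 had Col6a5 (1.13) and Retnlg (1.14), and Retnla had Col6a5 (1.15) and Chil3 (1.18). Chil4 had the epithelial genes Tspan8 (1.13) and Cldn2 (1.16). The points share the libraries, and the values for Chil3, Chil4 and Retnla are large because these genes vary most.

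The FAP+ CAFs were sorted away from CD45+ cells, so macrophage genes were measured in them as a second compartment. The tables were normalized separately, and levels set across them are given side by side without a test. Per length, Spp1 had a mean of 1271 RPKM over the 8 CAF libraries and 911 RPKM over the tumors, which include B16 (61.2 RPKM). By model, its CAF and tumor means were 2569 and 1947 RPKM in Pan02 and 825 and 517 in LL2. They were 980 and 1133 RPKM in MC38 and 711 and 896 in EO771. Over all libraries, every other member had a lower mean in the CAFs, from 8.59 RPKM for Chil4 and 4.04 for Nos2 to 0.321 for Cd163. Within EO771, Nos2 went the other way, at a mean of 5.30 RPKM in CAFs and 2.00 in tumors. Differences among CAF models are on the log2(RPKM + 1) scale, which understates those of low genes, and were tested with limma over 13598 genes. Of the 9 members tested, Mrc1 and Retnla reached 1 RPKM in EO771 libraries alone and Chil3 and Chil4 in Pan02 libraries alone, so these 4 passed the filter through the group where they are high and had to differ. Csf1r reached 1 RPKM in both EO771 libraries and in a single Pan02 library, so it too passed through EO771. All these genes enter the counts below, where nothing is read from them, and their differences are given as a description. With them, 8 of 9 were called among the 4 models, beside 80.4% of all genes, and Arg1 did not pass (adjusted p = 0.55). Leaving out any 1 library left 5 to 9 that differed, with 5 without Pan02 library 2, where Chil3 and Chil4 then fell under the filter and were not tested.

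Leukocyte genes were not at 0 in these sorted cells. The 6 leukocyte markers summed to 36.7 and 40.4 RPKM in EO771 CAFs, 18.6 and 30.1 in Pan02, 2.45 and 3.02 in LL2 and 3.44 and 2.65 in MC38. In EO771 all 5 markers tested were higher, whereas in Pan02 the sum was mostly the tetraspanin Cd53, at 16.1 and 28.1 RPKM, with 1 higher and 4 lower (median -0.71). Ptprc, which encodes CD45, was at 0.947 and 0.902 RPKM in EO771 and at or below 0.092 in the other libraries. The 12 macrophage genes beside the lineage genes summed to 224 and 279 RPKM in EO771, 71.9 and 87.3 in Pan02 and 20.7 to 25.0 in LL2 and MC38. Of the 11 tested, 9 were higher and 0 lower in EO771, against 2 higher and 3 lower in Pan02 (median -0.28), where Cd14 (35.1 and 42.2 RPKM) and the transcription factor Maf (13.4 and 17.1 RPKM) were the higher ones. Epithelial markers summed to 864 and 1151 RPKM in Pan02, 494 and 501 in EO771, 206 and 211 in LL2 and 4.43 and 2.04 in MC38. The EO771 sum was nearly all from the keratin Krt8, at 492 and 495 RPKM, and 1 of the 8 markers was higher and 6 were lower there (median -0.99), while 6 were higher and 0 lower in Pan02. Fibroblast markers were present in every library, with sums of 1503 to 9500.4 RPKM. The part of residual leukocytes or tumor cells in the member levels was not tested.

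EO771 CAFs had 4 members higher and 2 lower, where 24.5% of all genes were higher and 27.9% lower. Mrc1, Retnla and Csf1r are among the 4, and Chil4 is 1 of the 2. Mrc1 was at 4.11 and 4.14 RPKM in EO771, 0.473 and 0.333 in Pan02, 0.059 and 0.116 in LL2 and 0.1 and 0.092 in MC38. Csf1r was at 5.45 and 5.15 RPKM in EO771 and between 0.266 and 1.14 in the other 6 libraries. EO771 stood apart for both. The difference of Mrc1 in EO771 was 2.11. That of Csf1r, which passed the filter through EO771, was 1.88.

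Retnla was at 1.55 and 3.33 RPKM in EO771 CAFs and at 0 to 0.094 elsewhere, which is 38 and 79 counting steps against 0 to 2. Trem2 was at 4.01 and 5.16 RPKM in EO771, 2.59 and 2.71 in Pan02, 0.838 and 0.199 in MC38 and 0.143 and 0.283 in LL2. Again the EO771 libraries lay above all others, with Pan02 in between for Trem2. The difference of Retnla in EO771 was 1.69, and Trem2 was higher there by 1.57 (SE 0.18, limma adjusted p = 0.00046). Mrc1 and Retnla fell under the filter without either EO771 library, and 3 members were called in EO771 without its library 2. Mrc1, Csf1r, Retnla and Trem2 are the 4 members for which EO771 lay above every other library, as 17.3% of all genes did. Since Mrc1, Csf1r and Retnla passed the filter through EO771, nothing is read from this number beside that share. Cd163, which was not tested, was at 0.649 and 1.17 RPKM in EO771, 0.106 and 0.497 in Pan02, 0.060 and 0.061 in MC38 and 0.020 and 0 in LL2.

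Pan02 CAFs had 4 members higher and 2 lower, where 27.1% of all genes were higher and 26.5% lower. Chil3 and Chil4 are 2 of the 4, and Mrc1 is 1 of the 2. Chil4 was at 23.1 and 45.5 RPKM in Pan02, and it was listed at 0 in both EO771 libraries and 1 of MC38 and at 0.015 to 0.036 in the rest. Chil3 was at 1.25 and 4.14 RPKM in Pan02 and at 0 to 0.126 elsewhere. Pan02 lay above all other libraries for both. The difference in Pan02 was 5.05 for Chil4 and 1.69 for Chil3. Without Pan02 library 1 or 2 both genes fell under the filter, and 2 and 1 members, respectively, were called in Pan02. Chil4 was again above Chil3, as in the Pan02 tumors, and Retnla was at 0.052 and 0.094 RPKM.

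Spp1 was at 2571 and 2566 RPKM in Pan02 CAFs, 995 and 965 in MC38, 762 and 888 in LL2 and 687 and 735 in EO771. Pan02 lay above and EO771 below every other library. It was higher in Pan02 by 1.63 (SE 0.18, limma adjusted p = 0.00026). The lower level in EO771 (-0.84, SE 0.18, adjusted p = 0.0060) missed the threshold without EO771 library 1 (adjusted p = 0.090) or 2 (adjusted p = 0.068). In LL2 (-0.56, SE 0.18, adjusted p = 0.044) the call was lost without any 1 of the EO771, LL2 or Pan02 libraries (adjusted p between 0.080 and 0.303). Chil3, Chil4 and Spp1 are the members for which Pan02 lay above every other library, as 20.0% of all genes did. Since Chil3 and Chil4 passed the filter through Pan02 alone, nothing is read from this number beside that share.

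Nos2 was at 6.54 and 6.99 RPKM in LL2 CAFs, 2.04 and 8.55 in EO771, 3.21 and 3.55 in MC38 and 0.971 and 0.495 in Pan02. Both Pan02 libraries lay below the others, and the EO771 libraries lay on both sides of LL2 and MC38. Nos2 was lower in Pan02 (-1.73, SE 0.37, limma adjusted p = 0.0067), though not without Pan02 library 2 (-1.53, adjusted p = 0.059). LL2 was called higher (1.18, SE 0.37, adjusted p = 0.047), but not without any 1 of the LL2 or Pan02 libraries (adjusted p between 0.064 and 0.228) or without the filter (adjusted p = 0.11). Arg1 was at 1.97 and 3.95 RPKM in EO771, 1.85 and 2.24 in LL2, 2.97 and 0.441 in MC38 and 2.21 and 1.49 in Pan02, with overlap among the models, and differences among CAF models did not exceed the spread between libraries.

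LL2 CAFs had 1 member higher and 5 lower (14.7% and 18.3% of all genes), and MC38 CAFs had 0 higher and 5 lower (28.6% and 31.3%). Mrc1, Chil4 and Csf1r are among the 5 in LL2, and with Retnla they are all but Trem2 of the 5 in MC38. In all, 3 members were called in LL2 without any 1 of the LL2 or Pan02 libraries or EO771 library 1, and 3 in MC38 without either EO771 library. Trem2 was lower in LL2 (-1.36, SE 0.18, limma adjusted p = 0.0015) and in MC38 (-0.97, SE 0.18, adjusted p = 0.0027), the latter not by edgeR on the recovered counts (-1.41, adjusted p = 0.054). In Pan02 Trem2 was higher (0.76, SE 0.18, adjusted p = 0.0097), but not without Pan02 library 1 (adjusted p = 0.055) or 2 (adjusted p = 0.063). For Mrc1 in Pan02 the difference from a mean that holds EO771 was -0.38, and it turned to 0.32 by edgeR on the recovered counts. For Csf1r in LL2 the difference from a mean that holds EO771 was -0.60, and its call was lost without EO771 library 1 or LL2 library 1 or 2. Over the 9 members, 9 of 27 neighbouring pairs of CAF models differed, beside 27.2% over all genes.

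**Figure D5:**
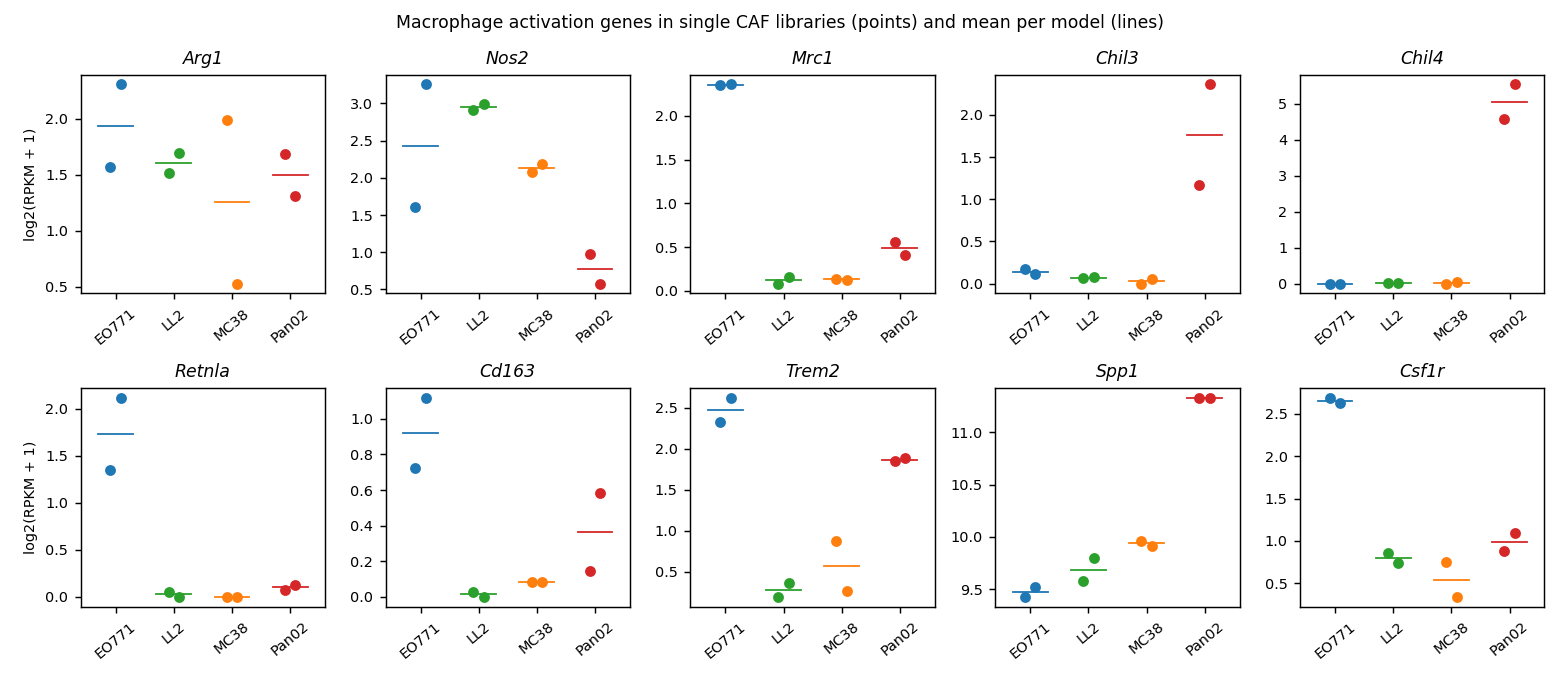
Level of each member in single CAF libraries (points, log2(RPKM + 1)) with the mean per model (lines). EO771 is highest for Mrc1, Retnla, Trem2 and Csf1r, and Pan02 for Chil3, Chil4 and Spp1.

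In the CAFs, 11 of the 15 further alternative activation genes were tested, and the counts are again read against the shares of all genes given above for each CAF model. EO771 had 7 higher and 0 lower, with Folr2 at 1.64 (SE 0.20, limma adjusted p = 0.00059). The scavenger receptor Msr1, 1 of the 7, was at 1.97 to 2.11 RPKM in EO771, with a mean of 0.103 RPKM in the other CAFs. It passed the filter through EO771 alone and had to differ, so its difference of 1.47 is a description. Pan02 had 5 higher and 2 lower, with the transglutaminase Tgm2 at 2.45 (SE 0.16, adjusted p = 2.5e-05, 196 to 271 RPKM). LL2 had 0 higher and 5 lower, and MC38 0 and 6. Of 10 classical activation genes tested, EO771 had 5 higher and 1 lower, with Tnf at 2.07 (SE 0.14, adjusted p = 5.1e-05), and MC38 had 3 and 3, with Cxcl10 at 2.76 (SE 0.29, adjusted p = 0.00022, 204 to 208 RPKM). LL2 had 0 and 4 and Pan02 2 and 4. Il1b, 1 of the 5 higher in EO771, also passed the filter through EO771 alone, with a mean of 0.031 RPKM in the other CAFs. Ass1 (3.14, SE 0.24) and Odc1 (2.46, SE 0.18) were higher in EO771 CAFs, as they were in EO771 tumors.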

How the data were processed

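RNA-seq of 15 whole tumors and 8 CAF libraries was used. Per the labels and the study's methods, the authors aligned reads to mm10 with STAR 2.5.0c and quantified RefSeq transcripts with HOMER, from unstranded polyA libraries. The tumor table deposited holds estimated counts in steps of a fraction of a read, not normalized, although its name says otherwise, and the CAF table holds RPKM values that the authors had scaled to read depth and transcript length. Each table has 40458 transcripts, of which 2 name no gene and hold 2.08e-05% of the counts, and 5 columns of per-sample values that match no sample used here were left out.

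Fractions in the tumor counts were rounded up. After filterByExpr and TMM scaling, the counts entered the edgeR 4.0.16 quasi-likelihood test in R 4.3.3 over 15722 genes. Each model was set against the mean of the others and against each other model. The same fit was repeated with the mean level of 4 macrophage lineage genes as an offset. CAF values were tested with limma 3.58.1 (trend) on log2(RPKM + 1), for the 13598 genes that reached 1 RPKM in 2 or more libraries. Of the CAF values 100.0% were whole counting steps within 0.15 of a step, which gave library totals of 18536358 to 45686435 steps. A step may be less than a read. Adjusted p-values are Benjamini-Hochberg over all genes tested, with a threshold of 0.05. The fits were tested on simulated counts.

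All 10 members are named. Of each further list, the text names at most the 2 genes with the largest change past the test at 10 CPM (tumors) or 1 RPKM (CAFs), and for each member the 2 genes most like it. The members and lists were chosen with earlier results of these data known. Alternatives were DESeq2 1.42.0, limma voom, other scalings, filters, pseudocounts, transcripts and rounding, a replicate block, and leaving out each library.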

Additional observations from a re-analysis of the deposited data

How the results depend on the processing

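The 80 differences of single members that were called in the main fits were followed over 38 settings, which gave 1522 values. Of these, 1393 kept their direction and side of the threshold, 126 lost the call (94 of them with a library left out) and 3 reversed. Differences not called in the main fits were not followed, so calls gained under a setting are not in this tally. Such gains enter only the numbers of members called. The reversed values were Mrc1 in Pan02 scaled to Csf1r alone (-0.23) or to the C1q genes (-0.11), and Mrc1 in Pan02 CAFs by edgeR on the recovered counts (0.32). The cause was not tested. The number of members called in the scaled B16 comparison went from 6 to 2 with Csf1r alone and to 3 with the C1q genes as the reference, that in scaled LL2 from 3 to 5 and in scaled MC38 from 4 to 7 with no filter on low counts, and that in MC38 CAFs from 5 to 3 with edgeR on the recovered counts. Without 1 tumor at a time, the members called ranged from 5 to 9 in B16, 3 to 8 in EO771, 2 to 5 in LL2, 2 to 4 in MC38 and 8 to 9 in Pan02, those differing among all models stayed at 10, and neighbouring pairs that differ ranged from 9 to 14. After scaling the ranges were 2 to 7, 3 to 7, 3 to 5, 3 to 7 and 8 to 9. Without 1 CAF library they were 3 to 7 in EO771, 3 to 6 in LL2, 3 to 5 in MC38 and 1 to 7 in Pan02, and 5 to 9 among all models, with fewer members tested where Chil3 and Chil4 or Mrc1 and Retnla fell under the filter. The lone library left in a model is then assumed to vary like the others. Chil4 in B16, EO771, LL2 and MC38 lost its lower calls with limma voom (adjusted p between 0.156 and 0.394). DESeq2 gave no adjusted p for Chil3 in Pan02. The replicate numbers of the tumors do not pair them: over 30 same-numbered pairs the correlation of deviations ran from -0.165 to 0.263, and the best match had the same number in 23 of 60 cases. With the replicate block, 7, 5, 3, 4 and 9 members were called in B16, EO771, LL2, MC38 and Pan02, and after scaling 6, 7, 4, 4 and 9. Chil4 in EO771 was the 1 call of a single member lost under the block (-2.18, adjusted p = 0.058). No paired analysis was possible for CAFs because their columns carry no replicate number. The alternatives on pairs of models, on counts recovered from CAF values and on further lists without a Pan02 tumor were chosen after seeing the data. With 3 tumors or 2 libraries in a group, differences near the spread were not resolved, and depth limits Chil4 outside Pan02 and Retnla in CAFs. Chil3 and Chil4 share sequence, and their separate levels are uncertain.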

Other observations

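Il4 and Il13 are the cytokines that induce most of the alternative activation genes. Il13 was at 0.391, 1.08 and 6.78 CPM in Pan02 tumors 1, 2 and 3 and at 0 to 0.261 CPM in the other 12 tumors. Il4 was at 0, 0.607 and 0.840 CPM in the Pan02 tumors, at 0.137 CPM in MC38 tumor 3 and at 0 in the rest. Il4 and Il13 were too low to be tested. Of the 6 genes of the type 2 cytokine list 2 could be tested in the tumors, Il33 and a gene of low level. Both were higher in Pan02, with or without any 1 Pan02 tumor. The gene of low level passed the filter through Pan02 alone and had to differ. The alarmin Il33 was at 172, 93.6 and 118 CPM in Pan02 (log2 difference 2.56, SE 0.31, edgeR adjusted p = 1.2e-05) and at 222, 209 and 83.2 CPM in LL2 (3.09, SE 0.31, adjusted p = 4.1e-06), and lower in EO771 (-3.66, SE 0.48, adjusted p = 2.8e-05). In the CAFs, 2 were tested, and Il33 was lower in MC38 (-1.69, SE 0.33, limma adjusted p = 0.0033).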
